A study of Homo sapiens with 6 samples.

Results

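The genes described are the 7 that write, maintain and oxidize DNA methylation in human cells: the DNA methyltransferases DNMT1, DNMT3A and DNMT3B, the cofactor UHRF1, and the dioxygenases TET1, TET2 and TET3. They were taken by gene symbol, all 7 of them, from a count table of 61267 genes. RNA was sequenced from THP-1, a human monocytic leukemia line, after 48 h with the phorbol ester PMA at 100 ng/ml, which makes the cells attach and take on macrophage features. Of the 6 libraries, 3 were labelled KD and 3 were labelled NC, and the labels name no target gene, vector or clone for KD. All 6 were given PMA. The series title names METTL1, a tRNA methyltransferase, and acute inflammation. The labels do not say whether the 3 libraries of a group are separate cultures, and p-values therefore cover only the spread among these libraries, possibly a technical one.

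DNA methylation in mammals is the addition of a methyl group to cytosine, mostly where cytosine precedes guanine (CpG). UHRF1 binds CpG sites that are methylated on one strand only, as replication leaves them, and brings DNMT1, which methylates the new strand. DNMT3A and DNMT3B place methyl groups on unmethylated sites, and TET enzymes oxidize methylcytosine, which leads to its removal by repair or by loss at replication. In blood cells DNMT3A and TET2 are well known as genes mutated in myeloid malignancy, DNMT3B and TET1 are known for high expression in embryonic cells, and DNMT1 and UHRF1 are known for high expression in dividing cells. No DNA methylation was measured here, and all values are RNA levels.

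Promoter sequence is shown for DNMT1 and UHRF1, which act together at the replication fork and are known targets of E2F, the factors that switch on genes of S phase, and for TET1, the gene with the lowest level in KD. Each window holds 250 bases before and 50 bases after a RefSeq start, on GRCh38.p14, read 5′ to 3′ on the strand of the gene. Capitals mark a match to the E2F motif, searched as TTTCCCGC, TTTCGCGC, TTTGCCGC or TTTGGCGC on both strands. The DNMT1 window is chr19:10194904-10195203 (minus strand), the first UHRF1 window chr19:4909251-4909550 (plus strand), the second UHRF1 window chr19:4909894-4910193 (plus strand) and the TET1 window chr10:68560087-68560386 (plus strand).
DNMT1: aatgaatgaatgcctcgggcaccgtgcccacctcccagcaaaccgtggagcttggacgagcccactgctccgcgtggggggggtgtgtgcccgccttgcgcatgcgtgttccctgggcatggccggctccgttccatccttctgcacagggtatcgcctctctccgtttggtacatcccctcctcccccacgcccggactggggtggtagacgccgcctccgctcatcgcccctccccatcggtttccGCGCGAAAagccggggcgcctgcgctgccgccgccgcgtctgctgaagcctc
UHRF1, first window: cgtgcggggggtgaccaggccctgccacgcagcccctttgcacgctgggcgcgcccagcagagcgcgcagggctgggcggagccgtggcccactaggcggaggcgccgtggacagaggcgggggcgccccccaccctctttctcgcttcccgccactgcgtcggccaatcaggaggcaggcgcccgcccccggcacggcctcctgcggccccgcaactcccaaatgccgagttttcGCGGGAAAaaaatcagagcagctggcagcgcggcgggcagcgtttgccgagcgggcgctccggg
UHRF1, second window: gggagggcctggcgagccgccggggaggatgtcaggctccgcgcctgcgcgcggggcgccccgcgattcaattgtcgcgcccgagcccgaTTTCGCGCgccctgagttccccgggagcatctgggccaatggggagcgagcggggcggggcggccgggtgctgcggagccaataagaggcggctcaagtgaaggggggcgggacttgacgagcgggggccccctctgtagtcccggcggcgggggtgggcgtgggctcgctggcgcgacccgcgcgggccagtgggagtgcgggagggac
TET1: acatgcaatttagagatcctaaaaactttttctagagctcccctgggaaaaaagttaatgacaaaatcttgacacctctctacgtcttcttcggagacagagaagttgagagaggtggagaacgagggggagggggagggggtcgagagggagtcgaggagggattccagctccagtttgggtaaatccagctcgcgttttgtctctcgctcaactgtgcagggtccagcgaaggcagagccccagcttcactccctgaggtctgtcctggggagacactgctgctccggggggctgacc

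The E2F motif was present in 1 of 1 window of DNMT1 and in 2 of 3 windows of UHRF1, against 3.31% of the 35116 promoter windows searched. Those windows had the same length and did not cover every chromosome. It began 2 bases before the start in DNMT1 and 14 and 160 bases before it in the first and second UHRF1 windows. None of the 14 windows of the other 5 genes held it, of which 6 belong to DNMT3A, 1 to DNMT3B, 3 to TET1, 2 to TET2 and 2 to TET3. The windows of DNMT1, UHRF1 and DNMT3B lie inside these genes as the count table draws them, so they do not describe the outermost start, while the TET1 window shown does. The number of CpG sites per window was 30 in DNMT1 and 36 and 40 in the first 2 windows of UHRF1. It was 10 in the TET1 window, with a median of 14 over the 35116 windows searched. Each form of the E2F motif searched holds a CpG itself. The 3.31% is therefore not the rate for windows with as many CpG sites as those of DNMT1 and UHRF1. A match describes letters in these windows and does not show that a factor binds there.

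**Figure D1:**
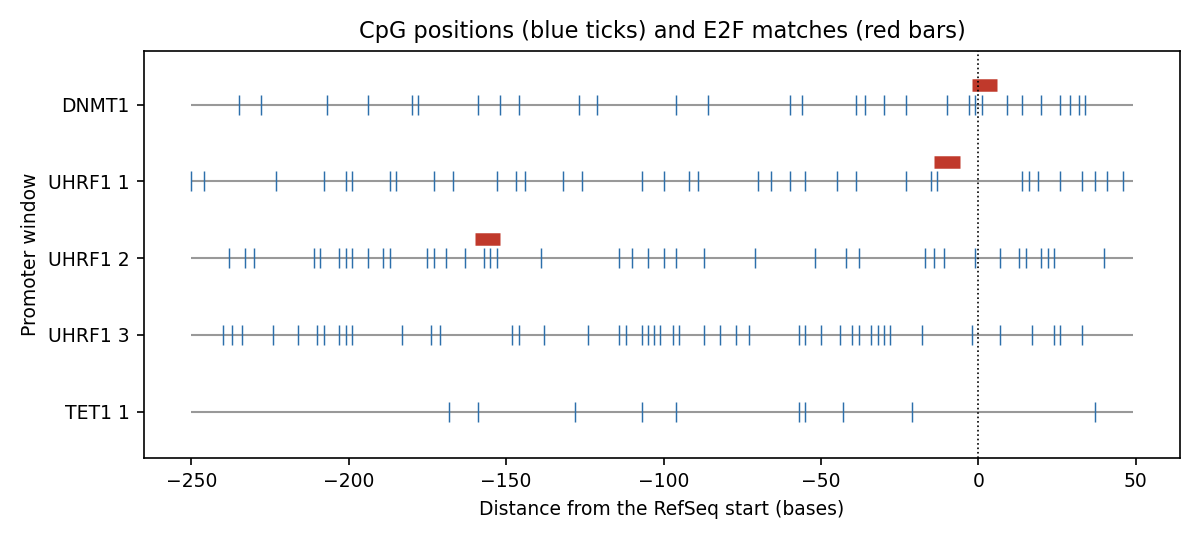
Positions of CpG sites (blue ticks) and matches to the E2F motif (red bars) in 5 RefSeq promoter windows, as distance in bases from the start site (dotted line). The DNMT1 window and the first 2 UHRF1 windows hold 1 match each, while the third UHRF1 window and the first TET1 window hold none.

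The libraries held 37628972 to 42970216 counts in all, over 21905 genes with enough counts to test. METTL1 had 14.4, 13.5 and 13.3 CPM (counts per 1000000 counts of the TMM-scaled library size) in KD and 14.1, 15.9 and 14.2 CPM in NC, a log2 fold change of -0.10 (edgeR adjusted p = 0.216, not past the threshold) under TMM. It passed as lower in KD with library sizes alone (-0.29, edgeR adjusted p = 0.00252) and on the leukocyte scale defined below (-1.38, edgeR adjusted p = 1.20e-14). Directions below refer to the labels KD and NC. Of all tested genes 76.5% passed an adjusted p of 0.05 in either direction, 36.2% as higher and 40.3% as lower in KD under TMM. On the leukocyte scale 2.68% were higher and 85.1% lower. Cell type markers differed between the groups. All 13 macrophage markers were higher in KD under TMM (2 higher and 7 lower on the leukocyte scale, where 58 leukocyte genes set the library scaling), with a sum of 2302 to 2348 CPM in KD and 1157 to 1189 CPM in NC. All 15 genes of a list for HEK293-type cells, chosen with earlier results of these data known, were lower under both scalings, with a sum of 21.0 to 22.8 CPM in KD and 2784 to 3219 CPM in NC. In KD the list's LIN28B, GALNT13 and ZCCHC12 had no count. Epithelial and fibroblast markers summed to 12.3 to 12.6 CPM in KD and 113 to 118 CPM in NC, with 6 lower and 1 higher of 8 tested (7 lower and 0 higher on the leukocyte scale). Of the T and NK cell markers 3 were higher and none lower of 4 tested under TMM, or 2 higher and 1 lower on the leukocyte scale (15.5 to 16.8 CPM in KD, 3.98 to 5.10 CPM in NC), with CD3E and CD3G at 0 in all libraries and CD3D at 0 in KD. All 3 tested B cell markers were lower under both scalings (2.03 to 2.89 CPM in KD, 5.02 to 5.33 CPM in NC), with CR2 at 0 in KD and MS4A1 at 0 in NC. CDKN2A, a gene that THP-1 cells lack, stood at 0.110 ± 0.0963 CPM in KD and 36.2 ± 0.954 CPM in NC (mean ± SD, n = 3 each), and its neighbour MTAP at 0.288 ± 0.147 CPM in KD and 22.3 ± 1.72 CPM in NC. The NC libraries thus go against the cell line on their label in these genes. CDKN2A is itself among the 15 HEK293-type genes, a list chosen with earlier results known, so that list adds no separate support. Values of other cell types move with every result below, and their part in those results was not tested. In such bulk samples, fewer cells of a type and less RNA per cell cannot be told apart.

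TET1, DNMT3B, UHRF1 and DNMT1 were lower in KD and TET2, TET3 and DNMT3A were higher under TMM, the scale of all genes, but TET2, TET3 and DNMT3A were lower too when 58 leukocyte genes set the scale. The differences ran from a 363-fold lower level of TET1 to a 2.04-fold higher level of TET2. All 7 passed the test, with 3 higher and 4 lower. Among all tested genes 36.2% were called higher and 40.3% lower, so that 7 of 7 against 76.5% in either direction is not in itself particular to these genes. Between the groups, CPM values overlapped for none of the 7, against 78% of tested genes without overlap. The median log2 fold change was -0.41 for the 7 genes and -0.05 for all tested genes. TET1 passed the filter on low counts through NC alone, so its call and its lack of overlap could only be toward lower in KD. The other 6 passed it in both groups.

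**Figure D2:**
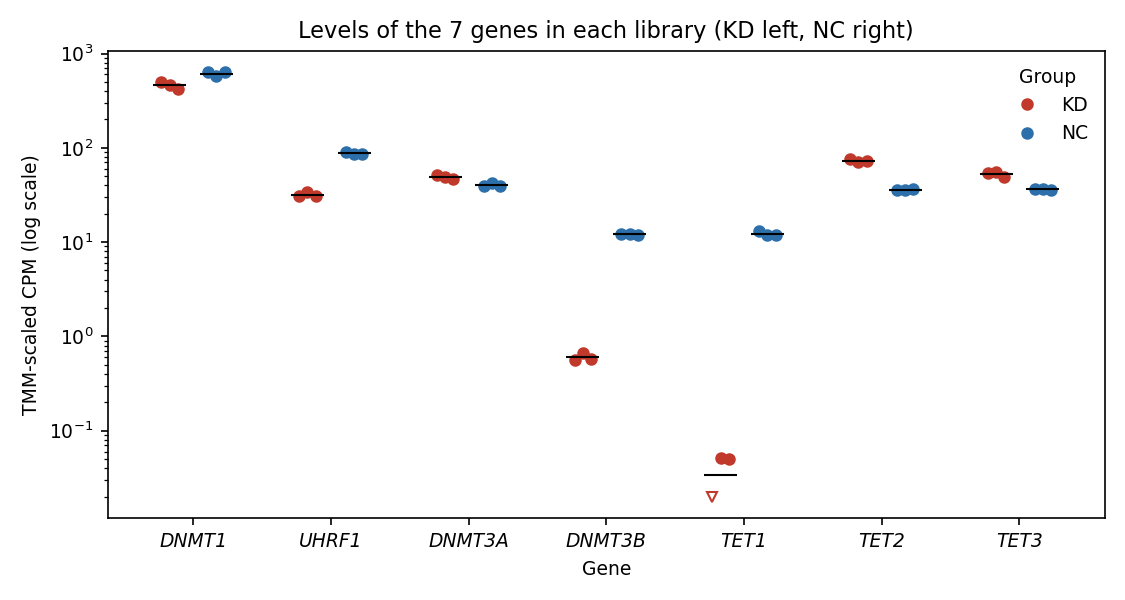
TMM-scaled CPM on a log axis for each gene (x axis), 1 point per library, KD (red) left of NC (blue), with the mean of each group as a black line. The open triangle is the KD library with no TET1 count, drawn at the foot of the axis. The KD points lie below the NC points for DNMT1, UHRF1, DNMT3B and TET1 and above them for DNMT3A, TET2 and TET3.

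DNMT1, the maintenance methyltransferase, was the most abundant of the 7 per kb of exon in both groups, and it fell by less under TMM than on the leukocyte scale. It lies on chromosome 19 from 10133342 to 10231286 (GRCh38, minus strand). Its counts were 19537, 18180 and 16785 in KD, against 26626, 23529 and 28806 in NC, or 496, 463 and 425 CPM in KD against 631, 573 and 637 CPM in NC. All 3 KD libraries were below all 3 NC libraries. The log2 fold change was -0.41 (SE 0.0522, edgeR adjusted p = 1.82e-07), 0.752 times the NC level, and -1.69 on the leukocyte scale. With 37.1% of the tested genes lower than it in log2 fold change, DNMT1 stood well inside the range of all genes under TMM. S1PR2, on the same strand, shares 83 exon bases with DNMT1, 0.54% of its exons, and had 464 counts in KD and 417 counts in NC in all.

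UHRF1, which guides DNMT1 to newly replicated sites, fell further. It lies on the plus strand of chromosome 19 from 4903080 to 4962154. Counts were 1217, 1320 and 1228 in KD, against 3801, 3568 and 3890 in NC, which is 30.9, 33.7 and 31.1 CPM in KD against 90.1, 87.0 and 86.0 CPM in NC. The KD libraries lay close together and far below the NC libraries. Its log2 fold change was -1.46 (SE 0.0474, edgeR adjusted p = 4.13e-19), a 2.75-fold lower level under TMM, and it was -2.74 on the leukocyte scale. Under TMM, 16.8% of tested genes had a lower log2 fold change.

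The ratio of UHRF1 to DNMT1 within a library does not depend on how libraries are scaled. The log2 ratio of their counts per kb of exon was -2.43, -2.20 and -2.19 in KD, against -1.23, -1.14 and -1.31 in NC. UHRF1 relative to DNMT1 was thus 2.07-fold lower in KD, and the groups did not overlap. With 3 against 3 libraries the smallest two-sided exact permutation p is 0.1, which this ratio gave (0.108 after Benjamini-Hochberg adjustment over the 14 ratios and shares compared), as did 12 of the others.

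S-phase genes give the setting of this pair. Their list had 19 lower and 1 higher of 20 tested in KD, against 40.3% lower and 36.2% higher of all tested genes. The median log2 fold change was -1.56 for the list and -0.05 for all tested genes. The replication factor CDC45 stood at 16.7 ± 1.69 CPM in KD and 134 ± 4.55 CPM in NC (mean ± SD, n = 3 each), and the helicase subunits MCM7 (log2 fold change -2.02) and MCM2 (-1.85) fell too. The single higher gene, named after its values were seen, was the replication factor GINS3, with a log2 fold change of 0.17 that did not pass with library sizes alone (-0.02) and was below 0 on the leukocyte scale (-1.11). Set against the geometric mean of the 20 genes, the log2 level of UHRF1 was 0.332, 0.453 and 0.374 in KD and 0.306, 0.248 and 0.225 in NC, a difference of 0.13. DNMT1 set against the same mean was at 2.76, 2.66 and 2.57 in KD and 1.53, 1.39 and 1.53 in NC, a difference of 1.17. Relative to these genes UHRF1 was thus 1.09-fold higher in KD than in NC, and DNMT1 2.26-fold higher. Both differences gave an exact permutation p of 0.1, the smallest possible.

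DNMT3A, a de novo methyltransferase, differed least of the 7 under TMM and with library sizes alone, while on the leukocyte scale TET2 differed least. It lies on the minus strand of chromosome 2 from 25227855 to 25342590. The libraries held 2022, 1918 and 1851 counts in KD, against 1651, 1748 and 1778 in NC, or 51.3, 48.9 and 46.9 CPM in KD against 39.1, 42.6 and 39.3 CPM in NC. The groups lay side by side without overlap on TMM-scaled CPM. The counts before scaling did not overlap either, but they take no account of library size, which was lowest in NC2 (37628972 counts). They are thus no separate support. The log2 fold change was 0.28 (SE 0.0511, edgeR adjusted p = 2.44e-05), 1.22 times the NC level on the scale of all genes, but it was 0.09 and did not pass with library sizes alone (adjusted p = 0.122) and was -0.99 on the leukocyte scale.

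DNMT3B, the other de novo enzyme, was low in KD, though it passed the filter on low counts in both groups. It lies on the plus strand of chromosome 20 from 32762385 to 32809359. Counts were 22, 26 and 23 in KD, against 520, 506 and 542 in NC, or 0.559, 0.663 and 0.582 CPM in KD against 12.3, 12.3 and 11.99 CPM in NC. The spread among libraries of a group was small beside the gap between the groups. The log2 fold change was -4.34 (SE 0.141, edgeR adjusted p = 4.37e-19), and 4.22% of tested genes had a lower one. From the summed counts, 71 in KD and 1568 in NC, the level in NC over that in KD was 20.3 (95% exact binomial interval 16.0 to 26.1). Counts from 1 to 20 were even in 67.8% to 70.3% of cases, as happens where a table counts each read of a pair, and with counts divided by 2 the interval was 14.3 to 28.8. Intervals cover counting error only.

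The balance of the de novo pair did not overlap between the groups. The log2 ratio of DNMT3B to DNMT3A, per kb of exon, was -5.52, -5.20 and -5.33 in KD, against -0.66, -0.79 and -0.71 in NC. As counts per kb, DNMT3B stood at 0.0245 times DNMT3A in KD and 0.607 times in NC, a 24.8-fold difference (exact permutation p = 0.1, the smallest possible). The share of DNMT3A in the sum of the 3 methyltransferases was 10.6% ± 0.308 in KD and 6.58% ± 0.648 in NC, and that of DNMT3B was 0.261% ± 0.0316 in KD and 3.99% ± 0.239 in NC (mean ± SD, n = 3 each). DNMT1 made up 89.1% ± 0.326 of it in KD and 89.4% ± 0.880 in NC, and this share overlapped between the groups (exact permutation p = 0.6). By the length of the longest coding transcript in GENCODE the shares were 5.50% in KD and 3.41% in NC for DNMT3A, 0.148% in KD and 2.26% in NC for DNMT3B, and 94.4% in KD and 94.3% in NC for DNMT1. By exon length the difference in the DNMT1 share was -0.28 percentage points, and 0.015 without NC replicate 3, while by transcript length it was 0.019.

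TET1, the oxidizing enzyme known from embryonic stem cells, was nearly without counts in KD. It lies on the plus strand of chromosome 10 from 68560337 to 68694487. The KD libraries held 0, 2 and 2 counts and the NC libraries 560, 482 and 539, which is 0, 0.0510 and 0.0506 CPM in KD against 13.3, 11.8 and 11.9 CPM in NC. The gap between the groups was far wider than the spread within either. From 4 counts in KD and 1581 in NC in all, the level in NC over that in KD was 363 (95% exact binomial interval 142 to 1336, or 100.2 to 3005 with counts divided by 2). The fitted log2 fold change was -8.38 (SE 0.253, edgeR adjusted p = 1.04e-19) and depends on the prior count at this depth. TET1 passed the filter on low counts through NC alone, so its direction was fixed by the filter and this p is no separate support for it. Only 0.73% of tested genes had a lower log2 fold change. HEK293-type markers such as NEFM (0.389 CPM in KD, 1594 CPM in NC) and LIN28B (0 CPM in KD, 86.3 CPM in NC) moved the same way in the same libraries.

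TET2, the TET enzyme best known in myeloid cells, was higher in KD on the scale of all genes and lower on the leukocyte scale. It lies on the plus strand of chromosome 4 from 105145875 to 105279816. Counts were 3004, 2793 and 2847 in KD, against 1500, 1469 and 1641 in NC, or 76.3, 71.2 and 72.1 CPM in KD against 35.5, 35.8 and 36.3 CPM in NC. The lowest KD library was well above the highest NC library. The log2 fold change was 1.03 (SE 0.0461, edgeR adjusted p = 2.58e-16), and 87.9% of tested genes had a lower one. On the leukocyte scale it was -0.25 (edgeR adjusted p = 3.59e-05). Macrophage markers moved the same way on the scale of all genes: CSF1R, the receptor of macrophage colony-stimulating factor, had a log2 fold change of 1.07 (-0.21 on the leukocyte scale), the leukocyte phosphatase PTPRC one of 1.43 (0.16) and the scavenger receptor MSR1 one of 1.23 (-0.04). CSF1R and PTPRC are themselves among the 58 genes that set that scale.

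TET3, the third TET enzyme, had a smaller difference than TET2 in the same direction under TMM, and a larger one on the leukocyte scale. It lies on the plus strand of chromosome 2 from 73984910 to 74108176. Counts were 2133, 2173 and 1930 in KD, against 1543, 1514 and 1606 in NC, or 54.2, 55.4 and 48.9 CPM in KD against 36.6, 36.9 and 35.5 CPM in NC. The groups did not overlap. The log2 fold change was 0.54 (SE 0.0519, edgeR adjusted p = 9.46e-10) on the scale of all genes and -0.74 on the leukocyte scale (edgeR adjusted p = 3.36e-12). An unnamed gene on the same strand shares 390 exon bases with TET3, 3.01% of its exons, and had 180 counts in KD and 87 counts in NC in all.

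The shares of the 3 genes in the TET family, which do not depend on the scaling of libraries, are given next. TET1 made up 0%, 0.0616% and 0.0646% of the sum of the 3 genes per kb of exon in KD, against 21.7%, 19.6% and 20.04% in NC. TET2 made up 52.5%, 50.2% and 53.6% in KD, against 33.9%, 34.8% and 35.6% in NC. TET3 held 47.8% ± 1.75 in KD and 44.8% ± 0.732 in NC (mean ± SD, n = 3 each). The 3 shares make up the whole, so the lower share of TET1 in KD by itself raises those of TET2 and TET3. Where each gene's length was taken from its longest coding transcript in GENCODE, TET3 held 39.1% in KD and 39.7% in NC, so the direction of its difference depends on the length used, while TET2 held 60.8% in KD and 43.9% in NC. The log2 ratio of TET2 to TET3, which leaves out TET1, was 0.146, 0.014 and 0.213 in KD, against -0.39, -0.39 and -0.32 in NC. The difference was 0.49, or 1.40-fold, so TET3 was lower relative to TET2 in KD. TET2 per DNMT3A had log2 ratios of 0.314, 0.285 and 0.364 in KD, against -0.40, -0.51 and -0.37 in NC. The summed methyltransferases per summed TET enzymes stood at a log2 ratio of 2.03, 1.97 and 1.93 in KD, against 2.84, 2.76 and 2.89 in NC. By exon length that is 3.94 to 1 in KD and 7.12 to 1 in NC. These levels depend on the length used, which for DNMT1 is 15379 bases of exon but 5206 in its longest coding transcript. Each of the differences given here had an exact permutation p of 0.1, the smallest possible, save the TET3 share by transcript length (p = 0.7). The TET1 share is made of the same counts as its fold change above, so its p is no separate support for that difference.

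**Figure D3:**
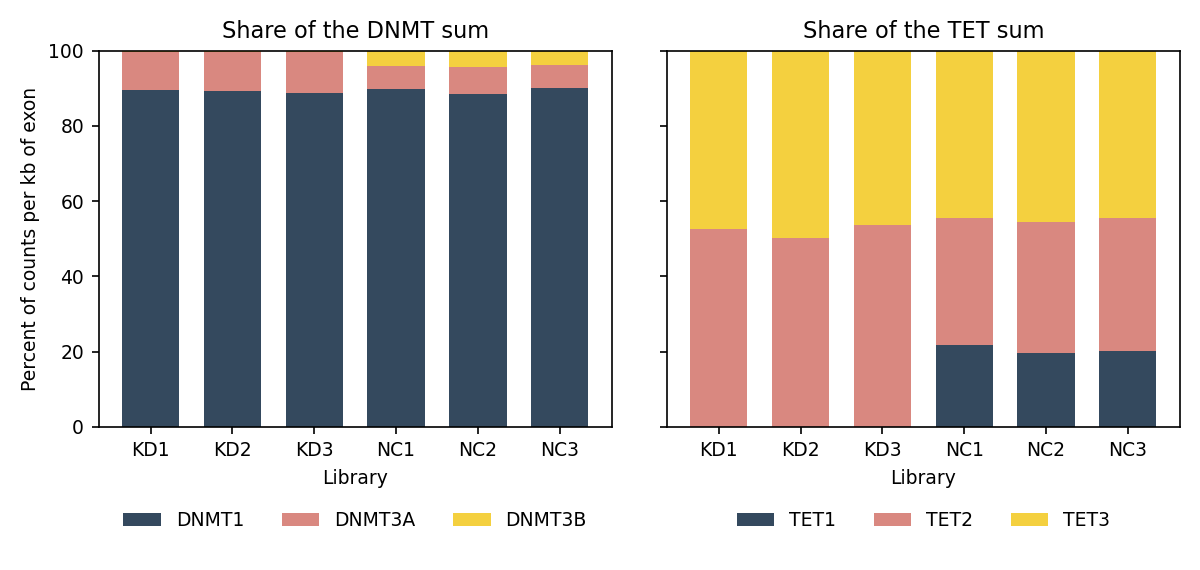
Percent of the counts per kb of exon held by each gene in the sum of the 3 DNMT genes (left) and of the 3 TET genes (right), 1 stacked bar per library, KD libraries left of NC libraries. DNMT1 fills 88.4% to 90.0% of the DNMT sum in all 6 libraries, and the TET1 segment of 19.6% to 21.7% is seen in NC only, since at most 0.0646% falls to TET1 in KD.

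In order of level per kb of exon, KD had DNMT1 at 30.0 ± 2.31 CPM per kb, UHRF1 at 6.20 ± 0.299, TET2 at 4.44 ± 0.164, TET3 at 4.08 ± 0.268, DNMT3A at 3.56 ± 0.163, DNMT3B at 0.0874 ± 0.00795 and TET1 at 0.00352 ± 0.00305 (mean ± SD, n = 3). In NC the order was DNMT1 at 39.9 ± 2.28 CPM per kb, UHRF1 at 17.04 ± 0.412, DNMT3A at 2.93 ± 0.142, TET3 at 2.81 ± 0.0558, TET2 at 2.18 ± 0.0229, DNMT3B at 1.78 ± 0.0287 and TET1 at 1.28 ± 0.0868. DNMT3A and TET3 overlapped in NC, and TET2 and TET3 in KD were apart by little (4.32 to 4.63 and 3.77 to 4.28 CPM per kb). These lengths count every exon of every isoform in the table, 15379 bases for DNMT1, whose longest coding transcript in GENCODE has 5206. By that transcript length the level of DNMT1 was 88.6 CPM per kb in KD and 118 in NC, and the order of DNMT3A and TET3 in KD and of TET2 and TET3 in NC was the other way round.

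The sign of the difference for DNMT3A, TET2 and TET3 rested on the scaling, while TET1, DNMT3B, UHRF1 and DNMT1 were lower in KD on each of 4 scalings. For TET1, which passed the filter on low counts through NC alone, the direction was fixed on all 4, so this is no separate support. The leukocyte scale sets 58 genes of white blood cells level, each of which was higher in KD under TMM. It moved the median log2 fold change of all tested genes from -0.05 to -1.32, and 3.06% of its calls were higher in KD in place of 47.3%. On it the log2 fold changes were -1.69 for DNMT1, -2.74 for UHRF1, -5.61 for DNMT3B and -9.61 for TET1. Relative to the median gene of that scale, TET2 (-0.25), TET3 (-0.74) and DNMT3A (-0.99) lay above it and the other 4 below it. With library sizes alone, where the median was -0.23, the values were -0.60 for DNMT1, -1.65 for UHRF1, 0.84 for TET2 and 0.35 for TET3.

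**Figure D4:**
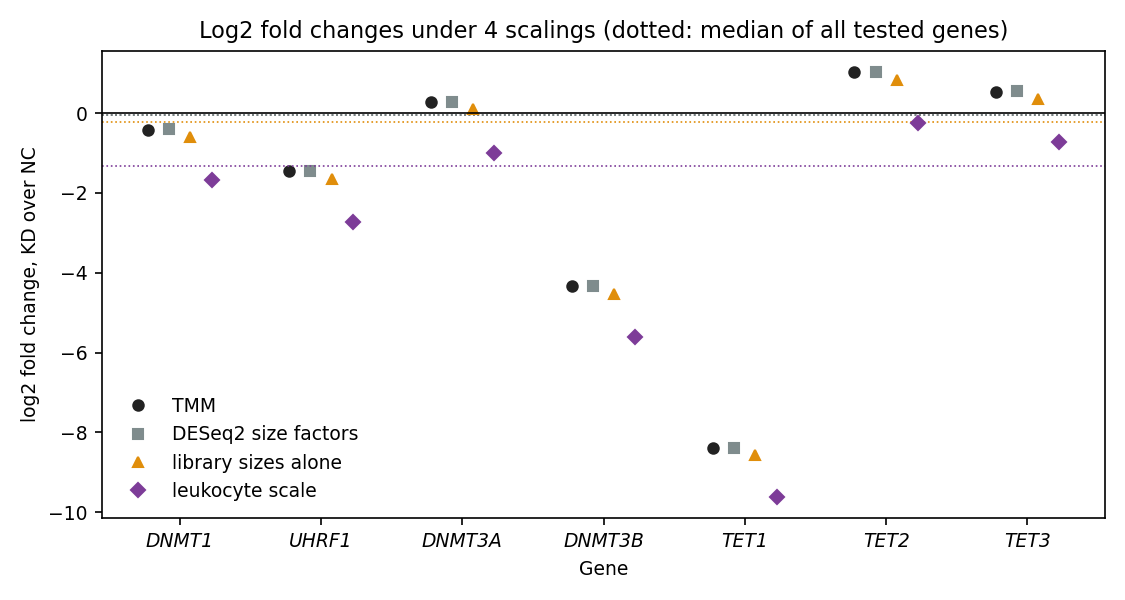
Log2 fold change, KD over NC (y axis), of the 7 genes under TMM, DESeq2 size factors, library sizes alone and the leukocyte scale, with the median of all tested genes under each scaling as a dotted line of the same color. DNMT3A, TET2 and TET3 lie above 0 under TMM and below 0 on the leukocyte scale, while DNMT1, UHRF1, DNMT3B and TET1 lie below 0 on all 4. The direction of TET1 was fixed by the filter on low counts.

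Genes that work beside DNMT1 and UHRF1 at the replication fork were lower in KD, with 7 lower and 2 higher of 10 tested and a median log2 fold change of -0.89, against -0.05 for all tested genes (scaled by library size alone, 8 lower and 1 higher, while on the leukocyte scale all 10 were lower). Of all tested genes 40.3% were lower and 36.2% higher under TMM, 47.3% and 28.4% with library sizes alone, and 85.1% and 2.68% on the leukocyte scale. The chromatin remodeler HELLS, which is needed for methylation of packed DNA, stood at 31.2 ± 0.268 CPM in KD and 182 ± 7.94 CPM in NC. Its activator CDCA7 stood at 2.15 ± 0.613 CPM in KD and 46.8 ± 1.87 CPM in NC, and the sliding clamp PCNA at 10.2 ± 0.735 CPM in KD and 58.9 ± 1.54 CPM in NC (mean ± SD, n = 3 each). The 2 higher genes, named after their values were seen, were the deubiquitinase USP7, a partner of DNMT1 and UHRF1 (log2 fold change 0.47), and the UHRF1 relative UHRF2 (0.25), both of them below 0 on the leukocyte scale (-0.80 and -1.02).

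Partners of de novo methylation were divided, with 3 higher and 3 lower of 9 tested (36.2% and 40.3% of all tested genes) and a median of 0.03 (scaled by library size alone, 1 higher and 6 lower, while on the leukocyte scale all 9 were lower). EZH2, the methyltransferase of the Polycomb complex, fell (log2 fold change -1.11), as did NSD2 (-0.79), which methylates histone H3. MORC2, a silencing factor, rose on the scale of all genes (0.59, against -0.68 on the leukocyte scale). DNMT3L, the inactive partner that stimulates DNMT3A and DNMT3B, was too low to test, at 0.330 ± 0.0756 CPM in KD and 0.164 ± 0.00812 CPM in NC, and is named after its values were seen.

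Proteins that bind methylated CpG had 4 higher and 1 lower of 8 tested (36.2% and 40.3% of all tested genes) and a median of 0.23 (scaled by library size alone, 4 higher and 3 lower, while the leukocyte scale gave 7 lower and 0 higher). ZBTB38, a zinc finger reader, stood at 75.1 ± 4.18 CPM in KD and 28.9 ± 0.408 CPM in NC, and its log2 fold change of 1.38 was 0.10 on the leukocyte scale without passing (edgeR adjusted p = 0.0673). MBD2 was higher too (0.95, against -0.32 on the leukocyte scale), and the reader ZBTB33, also called Kaiso, fell on both (-0.78 and -2.06).

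The repair genes that remove oxidized methylcytosine had 7 lower and 1 higher of 10 tested (40.3% and 36.2% of all tested genes) and a median of -0.40 (scaled by library size alone, 8 lower and 1 higher, while on the leukocyte scale all 10 were lower). PARP1, which senses DNA breaks, stood at 460 ± 16.6 CPM in KD and 1149 ± 40.1 CPM in NC, and the glycosylase NEIL3 fell with a log2 fold change of -2.59. XRCC1, the scaffold of single-strand break repair, was the single higher gene (0.74, against -0.53 on the leukocyte scale). TDG, the glycosylase that excises the oxidized bases and is named after its values were seen, had a log2 fold change of -0.14 (edgeR adjusted p = 0.0108).

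TET partners and enzymes of 2-oxoglutarate metabolism, the cosubstrate of TET enzymes, had 4 higher and 4 lower of 9 tested (36.2% and 40.3% of all tested genes) and a median of -0.11 (scaled by library size alone, 3 higher and 4 lower, while the leukocyte scale gave 7 lower and 0 higher). CXXC5, a CpG-binding protein that binds TET2, stood at 89.0 ± 2.62 CPM in KD and 34.7 ± 0.657 CPM in NC, with a log2 fold change of 1.36 that was 0.08 on the leukocyte scale without passing (edgeR adjusted p = 0.0952). PROSER1, a regulator of TET2, fell (log2 fold change -1.24).

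The cycle that supplies S-adenosylmethionine, the methyl donor of DNMTs, had 5 higher and 3 lower of 8 tested (36.2% and 40.3% of all tested genes) and a median of 0.25 (scaled by library size alone, 4 higher and 3 lower, while on the leukocyte scale all 8 were lower). MTAP, given above, and methionine synthase (MTR, log2 fold change -1.48) fell. AHCYL1, a relative of the enzyme that clears S-adenosylhomocysteine, rose on the scale of all genes (0.86, against -0.42 on the leukocyte scale). BHMT was at 0 in KD, had 0, 2 and 0 counts in NC, and was too low to test.

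**Figure D5:**
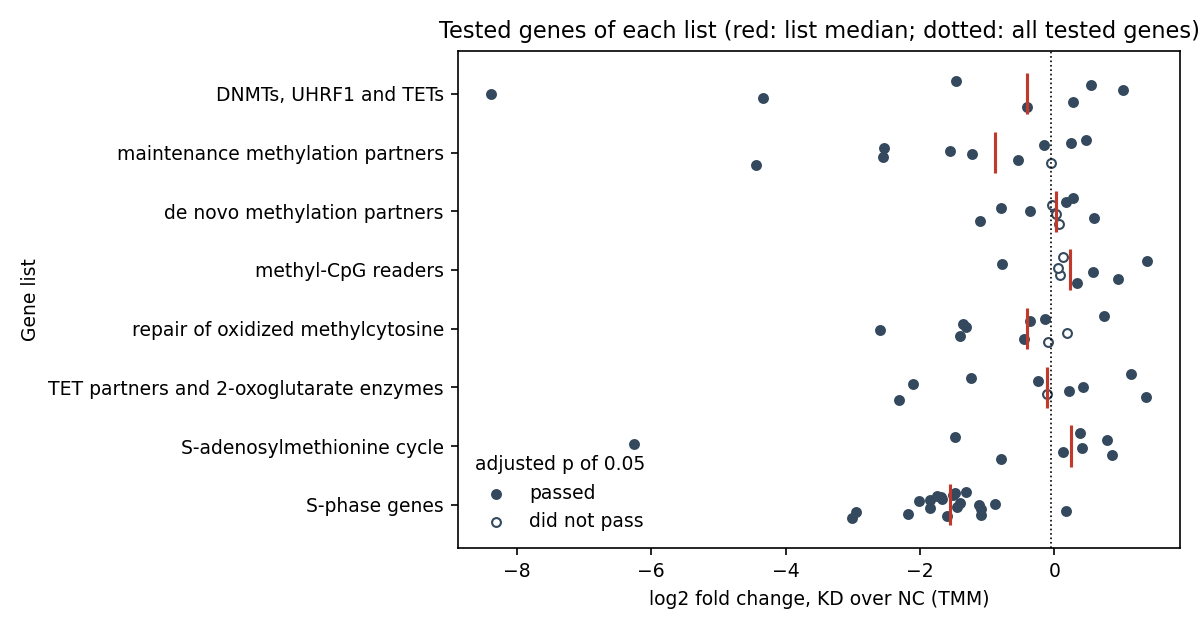
Log2 fold change, KD over NC (x axis, TMM), of each tested gene in 8 lists (y axis), filled where the adjusted p was below 0.05, with the list median in red and the median of all tested genes dotted. The S-phase list has 19 of 20 genes below 0, while the 7 DNMT, UHRF1 and TET genes spread from -8.38 to 1.03.

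Germline genes, many of which are silenced by promoter methylation in other cells, were mostly too low to test, with 3 of 12 tested. PRAME stood at 37.0 ± 0.724 CPM in KD and 18.4 ± 0.340 CPM in NC (log2 fold change 1.01, against -0.27 on the leukocyte scale), DAZL rose on both scales (2.31 and 1.04), and SYCP3 had a log2 fold change of -0.72 (edgeR adjusted p = 0.0472). TEX101, ASZ1 and CTCFL had no count in any library, SYCP1 and MAGEA1 none in KD, and DDX4 none in NC. SYCP1, MAGEA1 and DDX4 had at most 2 counts per library in the other group, so both groups were near 0.

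Among 10033 protein-coding genes with a mean of at least 5 CPM, those most like each of the 7 over the 6 libraries were found by the root mean square difference of log2 CPM centred on each gene's mean. They were HSPA1B (0.0183, though its reads can be shared with HSPA1A) and SFPQ (0.0265) for DNMT1, and TMEM106B (0.0298) and MRPL51 (0.0328) for UHRF1. For DNMT3A they were TLE3 (0.0179) and LEMD2 (0.0191), and for DNMT3B PLS1 (0.0507) and AKAP12 (0.079). For TET2 they were DLGAP4 (0.0148) and NBN (0.0154), and for TET3 SIRT7 (0.0274) and HPS5 (0.0276). TET1 had no close neighbour, with KLHL9 at 0.319 and GPR50 at 0.334, and all of these values are on the log2 scale. With 0, 2 and 2 counts in KD, the TET1 distances depend on the 0.01 CPM added before log2. They need not mark a pattern of its own. Since most genes differ between the 2 groups, a small difference here reflects mainly a like difference between KD and NC.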

How the data were processed

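RNA from 6 samples of PMA-treated THP-1 cells, 3 labelled KD and 3 labelled NC, was sequenced. Per the submitters' processing notes, fastp 0.23.0 trimmed the reads and the genome build was GRCh38. Not given in the sources used here were the use of strand, the aligner and counter, and the annotation. The authors deposited whole-number counts per gene, not normalized, beside exon coordinates and exon lengths in bases, for 61267 genes. Total counts were 37628972 to 42970216 per library.

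The members and all 15 gene lists were chosen with earlier results of these data known. The test was edgeR's quasi-likelihood test (version 4.0.16, R 4.3.3; robust, TMM, filterByExpr), which left 21905 genes, two-sided at a Benjamini-Hochberg adjusted p of 0.05 over all of them. CPM values are scaled by TMM, and levels between genes are CPM per kb of exon. Each SE is the log2 fold change over the square root of F. Ratios within a library were compared by two-sided exact permutation over samples. Log2 ratios with TET1 were not formed, since 1 KD library had no count, and its share of the TET sum was used. The leukocyte scale is TMM over 58 genes.

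Libraries of a group were neither identical nor within sampling noise (chi-square over its degrees of freedom 3.24 to 6.46). Genes named are the 7, METTL1, from each list described in full the 3 tested genes with the smallest p and any gene at 0 in a whole group, except for 1 that is not reported here, and the 2 nearest patterns per gene (0.01 CPM added before log2). Other names are marked as chosen after their values were seen. Cell type marker lists are given by counts and sums, with the markers that bear on a result. Promoters came from RefSeq tables on GRCh38.p14, which matched all 7 genes, and transcript lengths from GENCODE on GRCh38. The alternatives took library sizes alone, DESeq2 size factors or the leukocyte scale, no filter or one at a mean of 1 CPM, DESeq2 1.42.0 as the test, a replicate block, 5 of the 6 libraries, counts divided by 2, 1 count added to ratios and, added after seeing the data, transcript lengths. In counts simulated for KD against NC over 21905 genes, edgeR called 58% of the 50 genes set to differ 1.25-fold, 72% of those at 1.5-fold, 96% at 2-fold, 100% at 4-fold and 2 of 21705 unchanged genes. The simulation changed only these few genes, up and down in like number, and gave every gene the same dispersion. In the data 76.5% of tested genes passed, so these rates do not carry over to this fit.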

Additional observations from a re-analysis of the deposited data

How the results depend on the processing

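The 4 falls (DNMT1, UHRF1, DNMT3B and TET1) kept their direction and passed under all 14 alternatives of the fit, with log2 fold changes from -1.69 to -0.36 for DNMT1, -2.74 to -1.44 for UHRF1, -5.61 to -4.29 for DNMT3B and -9.61 to -7.84 for TET1. On the leukocyte scale 0 of the 7 genes were higher and 7 lower, and of all genes 588 were higher and 18636 lower, in place of 7934 and 8824. DNMT3A (-0.99), TET2 (-0.25) and TET3 (-0.74) reversed there, on a scale that moved the median log2 fold change of all tested genes from -0.05 to -1.32. Which scale suits these samples was not tested. Under the other 13 alternatives TET2 and TET3 stayed higher and passed, as did DNMT3A under 12, the exception being library sizes alone. METTL1 passed with library sizes alone (-0.29, adjusted p = 0.00252) and on the leukocyte scale (-1.38, adjusted p = 1.20e-14). The DNMT1 share of the DNMT sum ran from -0.78 to 0.015 percentage points with one library left out, reversing without NC replicate 3, and reversed by transcript length (0.019), as did the TET3 share of the TET sum by transcript length (-0.50). The log2 ratios kept their direction under each alternative run for them. Same-numbered libraries did not deviate together (correlations of 0.036, 0.026 and -0.079, against -0.124 to 0.103 for libraries with unlike numbers). With 3 libraries per group this check cannot exclude a weak pairing. Under a replicate block 7763 genes were higher and 8665 lower, and 3 of the 7 were higher and 4 lower. DESeq2 size factors left the counts of all 15 lists the same. Depth limits TET1 and DNMT3B in KD, which rest on 4 and 71 counts, and leaving out one library moved the TET1 log2 fold change between -8.76 and -7.84. Since TET1 passed the filter through NC alone, its direction was fixed in the filtered fits.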
